A study of Mus musculus with 18 samples.

Results

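The miR-30 family made up 17 of the 2134 features listed in each of 18 mouse small RNA libraries. Its members were taken by name, as every row of miR-30a, miR-30b, miR-30c, miR-30d and miR-30e. This naming rule uses no measured value, but it was set with earlier results of these data known. They comprised 6 hairpins, the stem-loop precursors listed as mmu-mir-30a, mmu-mir-30b, mmu-mir-30c-1, mmu-mir-30c-2, mmu-mir-30d and mmu-mir-30e (mmu for mouse, left out below), and 11 mature arms cut from them. All 17 had at least 10 reads over the 18 samples, the minimum for testing, which 1363 features met.

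The libraries were made from BV-2 cells, an immortalized mouse line that serves as a model of microglia, the resident macrophages of the brain. Each of 6 groups held 3 samples, and all groups came from this single line. Untreated cells formed the control group (Ctrl). The LPS group received 100 ng/ml lipopolysaccharide, a bacterial product that activates macrophages through Toll-like receptor 4, for 4 h. The CBD and THC groups received 10 μM cannabidiol or tetrahydrocannabinol for 6 h, and in the CBD+LPS and THC+LPS groups the cannabinoid was given 2 h before LPS. CBD and THC are isomers that differ in a ring, which is open with free phenol hydroxyls in CBD and closed as an ether in THC. In the labels each sample carries its own number from 22 to 39. The labels do not say whether the 3 samples of a group were separate cultures, so the p-values measure the spread between these samples. Levels are given in CPM, reads relative to the library total, which the authors scaled between libraries. They rest on 442718 to 1057147 reads per library, in which 3 reads corresponded to 2.98 to 6.38 CPM.

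A microRNA is a short RNA that guides an Argonaute protein to messenger RNAs, mainly through its seed, the bases 2 to 8 from the 5′ end. The enzymes Drosha and Dicer release it from a hairpin as a duplex of a 5p and a 3p arm, of which usually a single arm is kept in quantity. The miR-30 family is broadly expressed, and its 5p arms share a seed and so a large part of their predicted targets. Family members are known for restraining Snai1, an inducer of epithelial to mesenchymal transition, and Becn1, which acts in autophagy.

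The sequences are shown because they decide how far reads of the members can be told apart. RefSeq sequences (GRCm38.p6) matched 7 of the 11 mature arms and 4 of the 6 hairpins. The arms and hairpins of miR-30b and miR-30d, among them the most abundant member miR-30d-5p, were not matched. The 3 matched 5p arms are printed first, then the 4 matched 3p arms, with the seed in capitals.
miR-30a-5p: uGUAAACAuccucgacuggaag
miR-30e-5p: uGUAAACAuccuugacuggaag
miR-30c-5p: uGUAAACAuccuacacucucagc
miR-30a-3p: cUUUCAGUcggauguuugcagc
miR-30e-3p: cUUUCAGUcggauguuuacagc
miR-30c-1-3p: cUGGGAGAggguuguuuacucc
miR-30c-2-3p: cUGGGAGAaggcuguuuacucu
The seed GUAAACA was the same in all 3 matched 5p arms. The 3p arms fell into a pair with the seed UUUCAGU and a pair with the seed UGGGAGA. Counted from the 5′ end, miR-30a-5p and miR-30e-5p are identical at 21 of 22 bases and differ by C13U, and miR-30a-3p and miR-30e-3p differ by G18A alone. miR-30c-5p shares its first 12 bases with miR-30a-5p and differs from it at 5 of 22 positions. The split between miR-30a and miR-30e arms therefore rests on a single base. How far reads of miR-30b and miR-30d can be told apart from these was not examined. How reads that mapped to several entries were counted is not given in the sources used here.

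The hairpins of mir-30a and mir-30e, and of both mir-30c genes, show where the arms lie, in capitals.
Mir30a: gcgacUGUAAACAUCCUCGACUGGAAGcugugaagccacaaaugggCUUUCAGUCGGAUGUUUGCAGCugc
Mir30e: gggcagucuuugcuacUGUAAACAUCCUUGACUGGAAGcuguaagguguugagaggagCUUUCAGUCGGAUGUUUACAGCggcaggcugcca
Mir30c-1: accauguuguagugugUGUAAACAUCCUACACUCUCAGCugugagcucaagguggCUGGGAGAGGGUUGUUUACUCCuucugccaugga
Mir30c-2: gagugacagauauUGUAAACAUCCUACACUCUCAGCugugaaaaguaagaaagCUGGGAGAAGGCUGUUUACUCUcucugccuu
Both mir-30c hairpins hold the same 5p arm, so miR-30c-5p is the sum of 2 genes, while the 3p arms of these genes differ at 3 of 22 positions (G9A, U12C and C22U). The 6 genes lie in 3 pairs in GENCODE M21 on GRCm38. Mir30a (chr1:23272269-23272339, plus strand) overlaps no other gene, and Mir30c-2 (chr1:23291701-23291784, plus) lies 19361 bases further on in an exon of the noncoding gene Gm27028. Mir30c-1 (chr4:120769534-120769622, minus) and Mir30e (chr4:120772606-120772697, minus) are 2983 bases apart in introns of Nfyc, which encodes a subunit of the transcription factor NF-Y and lies on the same strand. Mir30b (chr15:68337415-68337510, minus) and Mir30d (chr15:68341208-68341289, minus) are 3697 bases apart, Mir30b in an exon of the noncoding Gm26621 and Mir30d in exons of the noncoding Gm37296 and Gm20732.

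Markers of LPS treatment and of myeloid cells were checked first. miR-155-5p, which macrophages induce on activation, ranged from 499 to 1407 CPM in the 9 samples without LPS and from 6580 to 9334 CPM in the 9 with LPS. Of the fixed myeloid markers miR-223-3p was at 48.5 to 178 CPM and miR-146a-5p at 3647 to 12680 CPM. miR-223-5p averaged 8.98 CPM, and miR-142a is not listed under that name. Of 12 markers of neurons, muscle, liver, red blood cells and embryonic stem cells, 11 averaged under 20 CPM, and the exception was miR-128-3p with 495 CPM. The samples numbered 22 to 27, one from each group, stood apart from samples 28 to 39. In limma with group in the fit, 247 of 1363 features (18.1%) differed between samples 22 to 27 and samples 28 to 39 (adjusted p up to 0.1). Values from samples 28 to 39 alone, 2 per group, are therefore given beside the results they touch.

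The family was abundant and its order of levels was steady. It took 7.22 to 9.56% of all reads (median 8.17%), and 98.0 to 98.7% of that share came from the 5p arms. By mean CPM over the 18 samples miR-30d-5p ranked 5 of 2134 features, miR-30a-5p 12, miR-30e-5p 24, miR-30c-5p 36 and miR-30b-5p 49. In this order each 5p arm exceeded the next in 18 of 18 samples. The ratio of miR-30e-5p to miR-30c-5p within a sample was 1.36 to 2.24 (median 1.56), and that of miR-30c-5p to miR-30b-5p was 1.23 to 2.28 (median 1.67). The 3p arms began far below. miR-30d-3p, miR-30a-3p and miR-30e-3p averaged 281, 276 and 268 CPM and changed places between samples, with miR-30d-3p above miR-30a-3p in 9 of 18. A lower set held miR-30b-3p at 97.7 CPM, miR-30c-2-3p at 94.1 CPM and miR-30c-1-3p at 64.1 CPM. The first 2 of them changed places in 9 of 18 samples.

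**Figure D1:**
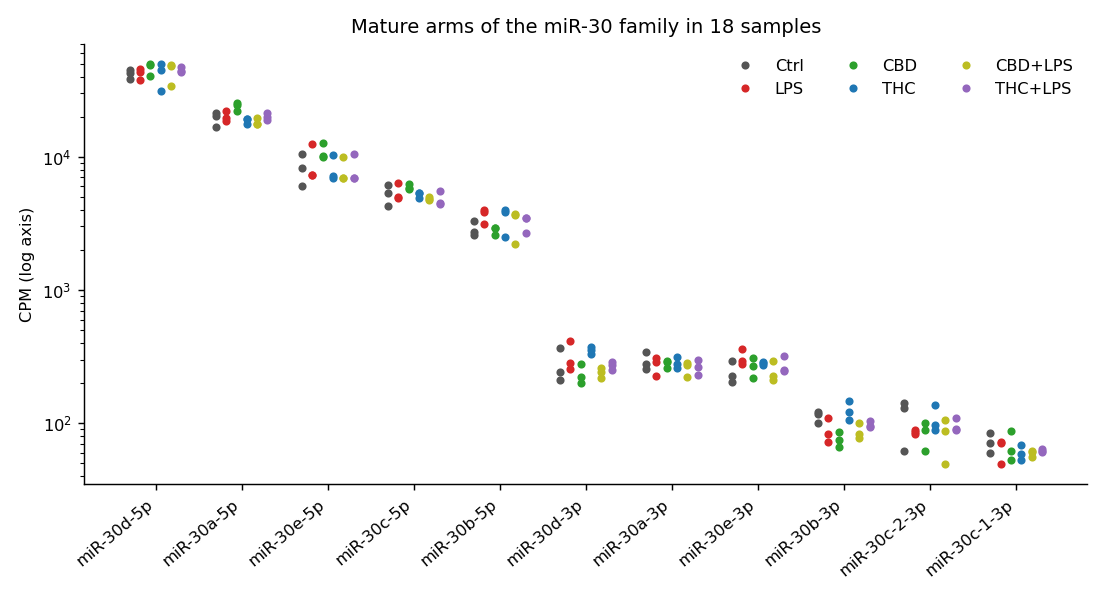
CPM of the 11 mature arms (log axis), each point a sample, coloured by group, 3 samples per group. The 5p arms lie between 2219 and 49706 CPM and the 3p arms between 49.0 and 415 CPM, with no overlap between the arms.

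miR-30d-5p, the most abundant member, was at 42325, 44439 and 38477 CPM in Ctrl samples 22, 28 and 34. It was at 37917, 45474 and 43607 CPM with LPS, at 40419, 48610 and 49411 CPM with CBD, and at 30957, 44824 and 49706 CPM with THC. The combined treatments gave 33881, 48009 and 48829 CPM for CBD+LPS and 43467, 43826 and 47107 CPM for THC+LPS. The groups overlapped throughout, and the lowest values were those of THC sample 25 and CBD+LPS sample 26.

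miR-30a-5p was at 20167, 16672 and 21226 CPM in Ctrl and at 21939, 19520 and 18497 CPM with LPS. With CBD it was at 22039, 25436 and 24608 CPM, and with THC at 17596, 19343 and 19188 CPM. CBD+LPS gave 17748, 17712 and 19411 CPM and THC+LPS 21304, 18973 and 19839 CPM. The 3 CBD samples were the highest of all 18 and overlapped with no other group, while the other groups overlapped one another.

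miR-30e-5p, which differs from miR-30a-5p by a single base, was at 10536, 6048 and 8234 CPM in Ctrl and at 12382, 7290 and 7332 CPM with LPS. It was at 12778, 9883 and 10103 CPM with CBD and at 10315, 6876 and 7217 CPM with THC. CBD+LPS gave 9965, 6924 and 6939 CPM and THC+LPS 10540, 6927 and 6985 CPM. In each group the sample numbered 22 to 27 was the highest, and the groups overlapped.

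miR-30c-5p was at 6189, 4239 and 5351 CPM in Ctrl, at 6320, 4960 and 4870 CPM with LPS and at 5708, 5802 and 6270 CPM with CBD. THC gave 5348, 4919 and 5309 CPM, CBD+LPS 4958, 4819 and 4736 CPM and THC+LPS 5569, 4488 and 4421 CPM. CBD samples lay above all THC, CBD+LPS and THC+LPS samples, and Ctrl overlapped with every group.

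miR-30b-5p was at 2716, 3276 and 2566 CPM in Ctrl, at 3136, 3863 and 3964 CPM with LPS and at 2581, 2896 and 2924 CPM with CBD. THC gave 2479, 3853 and 3965 CPM, CBD+LPS 2219, 3670 and 3694 CPM and THC+LPS 2697, 3466 and 3494 CPM. The LPS samples were above all CBD samples and overlapped with the controls.

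The 5p arms were also summed in CPM. These sums carry the scaling between libraries and are not shares of reads, so samples can rank otherwise by share. As a share of all reads the 5p arms took 7.11 to 9.42% (median 8.03%). The sum was 77487 ± 3895 CPM in Ctrl (mean ± SD, n = 3), 80357 ± 1831 with LPS, 89823 ± 5465 with CBD, 77299 ± 9596 with THC, 77838 ± 7949 with CBD+LPS and 81034 ± 3031 with THC+LPS. The highest single value was 93316 CPM in CBD sample 36 and the lowest 66694 CPM in THC sample 25. The CBD samples (83525, 92627 and 93316 CPM) lay above the controls (81933, 74674 and 75854 CPM), and no p is given for a sum over members. Scaling by library size alone turned the order of LPS and Ctrl, with means of 76246 CPM with LPS and 82002 CPM in Ctrl.

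**Figure D2:**
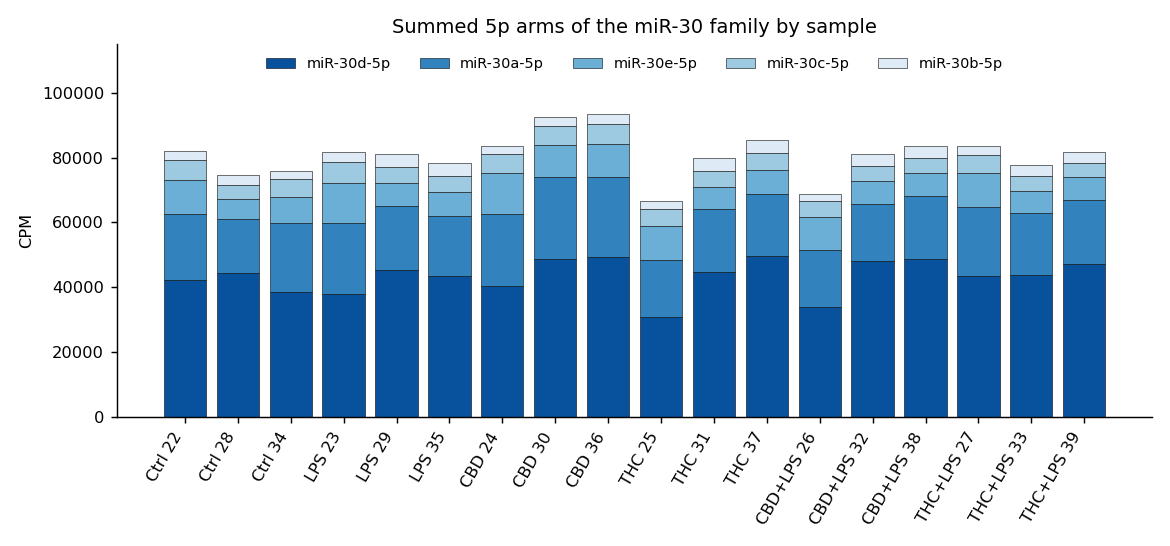
Stacked CPM of the 5 5p arms (linear axis from 0) in each of the 18 samples, named by group and number. miR-30d-5p and miR-30a-5p fill most of every bar, and the totals run from 66694 to 93316 CPM.

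The first comparison asked whether LPS or a cannabinoid changed the members against untreated cells. None of the 17 passed. In the limma F test over the 6 groups 0 members reached an adjusted p of 0.1, against 1.76% of all features tested. None had an unadjusted p of at most 0.05 (8.36% of all features), and the smallest p among the members was that of miR-30b-3p (0.0595, adjusted 0.588). Treatments were called against Ctrl at an unadjusted p of at most 0.005 with at least a 1.5-fold difference. At that criterion limma called 0 members for LPS (1.54% of all features), CBD (1.61%), THC (0.44%), CBD+LPS (1.39%) and THC+LPS (1.83%). At an unadjusted p of at most 0.05, 2 members were reached for CBD (9.17% of all features) and 0 for LPS (5.87%), THC (3.37%), CBD+LPS (6.31%) and THC+LPS (4.77%). The quasi-likelihood test of edgeR, run on reads recovered from the CPM, called 0 members in each of these 6 comparisons, and 1 of its tests, miR-30b-3p for CBD, reached an unadjusted p of 0.05. DESeq2 called miR-30b-3p in its test over the groups (2.86% of all features) and for CBD (1.03%). At an unadjusted p of at most 0.05 it also reached hairpin mir-30d in both and miR-30b-3p for LPS.

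The intervals show how large a change these data could hide. Over the 5 treatments the fitted log2 fold changes of the 5p arms against Ctrl ran from -0.12 (miR-30c-5p with THC+LPS) to 0.43 (miR-30e-5p with CBD). Of these 25 values 17 had a 95% interval that stayed within 1.5-fold in either direction. For miR-30d-5p the change with LPS was 0.02 with an interval of -0.37 to 0.40. For the 3p arms 8 of 30 intervals stayed within 1.5-fold, and for the hairpins 2 of 30. With LPS 12 of 17 log2 values were above 0, with a median of 0.05 beside 0.11 over all features. With CBD 8 of 17 were above 0 (median -0.02 beside 0.00), with THC 8 (-0.00 beside 0.08), with CBD+LPS 6 (-0.08 beside 0.04) and with THC+LPS 9 (0.02 beside 0.03). These 5 comparisons share the control samples. Scaling by library size alone moved the median of all features by -0.13 for LPS and by -0.12 for THC+LPS.

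**Figure D3:**
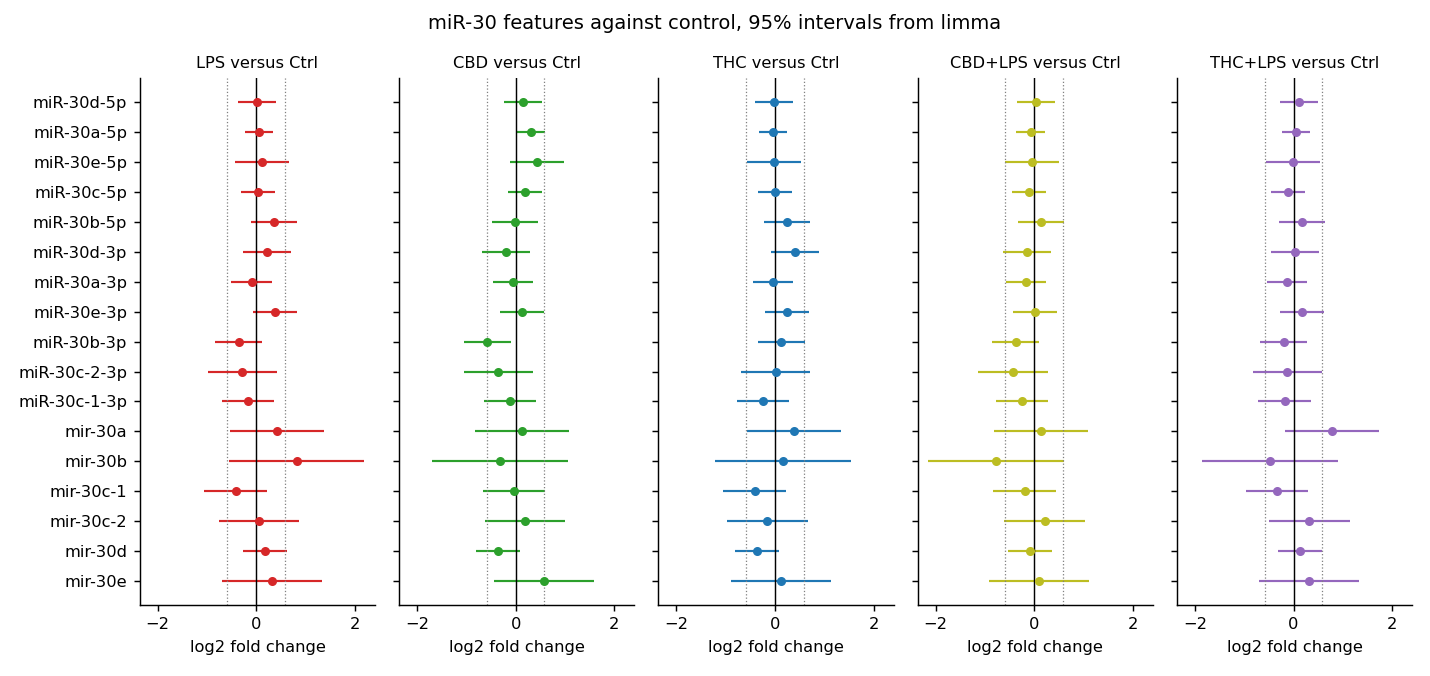
Fitted log2 fold changes (horizontal axis, with 95% intervals from limma) of the 17 members, 11 mature arms above 6 hairpins, for each of the 5 treatments against Ctrl, with 3 samples per group. Dotted lines mark 1.5-fold in either direction. The 5p arm points lie between -0.12 and 0.43, and the widest intervals are those of the hairpins.

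With CBD alone, 2 arms had an unadjusted p of at most 0.05 against Ctrl. miR-30a-5p was higher in each CBD sample than in each control (means 24028 ± 1771 and 19355 ± 2383 CPM, SD, n = 3). Its log2 fold change was 0.32 ± 0.14 (SE), with an unadjusted p of 0.0315 and an adjusted p of 0.493 (limma). miR-30b-3p, the minor arm of mir-30b, was lower in each CBD sample. It was at 100.0, 121 and 117 CPM in Ctrl and at 66.0, 75.1 and 85.4 CPM with CBD, a log2 fold change of -0.57 ± 0.23 with an adjusted p of 0.426. Neither change passed. With samples 28 to 39 alone the values were 0.41 (adjusted p = 0.0235) and -0.57 (adjusted p = 0.0717), again not called. In that limma fit miR-30c-5p was at 0.34 (adjusted p = 0.0579, not called). The share of all features at such an adjusted p was not computed for CBD against Ctrl. The F test of the same fit called 21.1% of all features. miR-30e-5p had a larger log2 value than miR-30a-5p, 0.43 (interval -0.12 to 0.98), and with samples 28 to 39 alone it was 0.50 (adjusted p = 0.0106, below 1.5-fold and so not called). miR-30b-5p was at 0.24 for THC against Ctrl, and at 0.43 with samples 28 to 39 alone (adjusted p = 0.269). For LPS against Ctrl it was also at 0.43 with samples 28 to 39 alone (limma, unadjusted p = 0.00197, adjusted 0.067). That value was below 1.5-fold and so not called. The other arm, miR-30b-3p, went the opposite way in the same limma fit, at -0.60 (unadjusted p = 0.00909, adjusted 0.162, not called). Members whose CBD and Ctrl samples did not overlap numbered 4, beside 10.2% of all features. miR-30a-5p and hairpin mir-30e lay above the controls, and miR-30b-3p and hairpin mir-30d below. For LPS 1 member lay apart from Ctrl (hairpin mir-30d above, 9.39% of all features) and for THC 1 (the same hairpin below, 6.82%). For CBD+LPS (9.24%) and THC+LPS (7.7%) there were 0.

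CBD and THC were then set against each other at their common dose of 10 μM and time of 6 h, and the 3p arms of mir-30b and mir-30d had the log2 values furthest from 0 among the 17 members. miR-30b-3p was at 66.0, 75.1 and 85.4 CPM with CBD and at 105, 120 and 147 CPM with THC. miR-30d-3p was at 280, 199 and 221 CPM with CBD and at 375, 333 and 355 CPM with THC. For both arms every CBD sample lay below every THC sample. miR-30b-3p was 1.63-fold lower with CBD (log2 -0.71 ± 0.23, 95% interval -1.18 to -0.23), and its unadjusted p of 0.00616 missed 0.005. miR-30d-3p was 1.53-fold lower (log2 -0.61 ± 0.23, interval -1.10 to -0.13, unadjusted p = 0.0166). Adjusted over all features the limma p was 0.151 and 0.18, and limma called 0 of the 17 members, against 3.3% of all features. edgeR called 0 and DESeq2 1, miR-30b-3p. For the major arms from the same hairpins the log2 values were -0.26 (interval -0.73 to 0.20) for miR-30b-5p and 0.16 (-0.22 to 0.55) for miR-30d-5p. With samples 28 to 39 alone miR-30b-5p was at -0.43 (adjusted p = 0.0184), in the direction of its 3p arm and below 1.5-fold. miR-30a-5p was higher with CBD than with THC by a log2 value of 0.36 (0.07 to 0.64, unadjusted p = 0.0165, adjusted 0.18). Over 31 other settings this value lay between 0.21 and 0.42 and was called in 0, the lowest being that with the covariate for library composition (unadjusted p = 0.217). miR-30e-5p was at 0.44 (interval -0.11 to 0.99), and at 0.50 with samples 28 to 39 alone (adjusted p = 0.0101, not called). In composition the CBD and THC libraries did not overlap, with mir-6236, mir-6240 and mir-6243 taking 0.151 to 1.67% of reads with CBD and 1.80 to 4.55% with THC.

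These 3 arms were the members at an unadjusted p of at most 0.05 between CBD and THC, beside 16.2% of all features. Members whose samples did not overlap numbered 4, the 3 arms and miR-30c-5p, beside 20.6% of all features, so the share of members was near that of features at large. The calls on the 3p arms depended on the fit. miR-30b-3p passed in 9 of 31 other settings and its log2 value lay between -0.82 and -0.58 in all 31. These settings were library size alone (2.42% of all features called), RLE factors (3.3%), the filterByExpr filter (3.57%), DESeq2 (2.79%), a covariate for samples 22 to 27 (4.04%) or for the sets 22 to 27, 28 to 33 and 34 to 39 (3.67%), samples 28 to 39 alone, and the fits without LPS sample 23 (2.7%) or THC sample 25 (1.88%). miR-30d-3p passed in 3 of 31, both covariates and samples 28 to 39 alone, with values between -0.75 and -0.51. With samples 28 to 39 alone, 2 per group, both passed, at -0.73 (adjusted p = 0.0204) and -0.71 (adjusted p = 0.0046), and so did 13.3% of all features there.

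**Figure D4:**
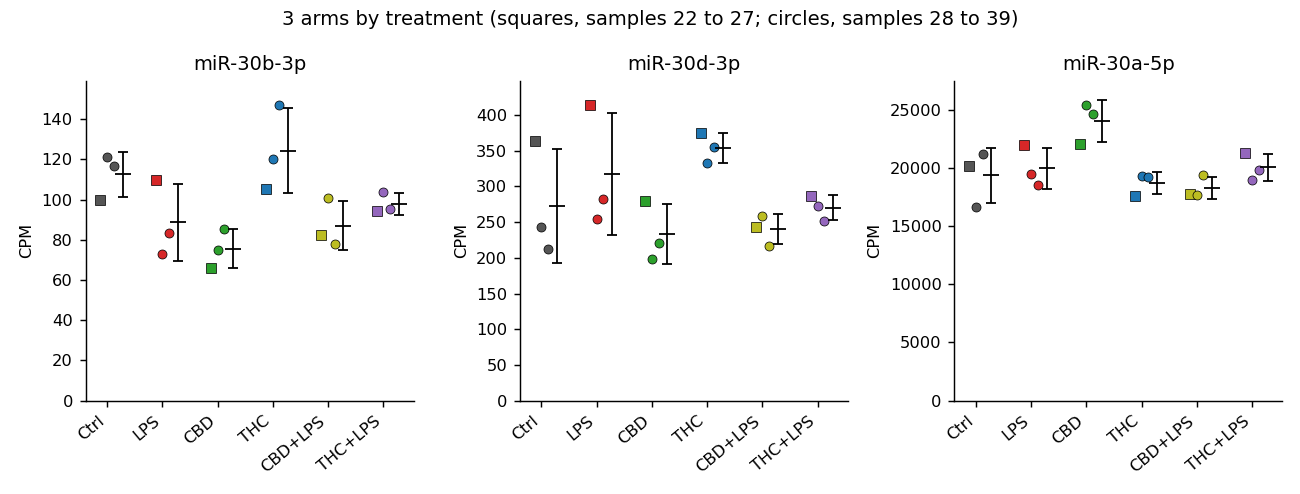
CPM (linear axis from 0) of miR-30b-3p, miR-30d-3p and miR-30a-5p in each sample by treatment, squares for samples 22 to 27 and circles for samples 28 to 39, with the mean and SD of 3 samples beside each group. CBD samples lie below THC samples for both 3p arms and above them for miR-30a-5p, while CBD+LPS and THC+LPS samples overlap in all 3 panels.

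miR-30d-3p in the other groups was at 364, 243 and 212 CPM in Ctrl and at 415, 254 and 282 CPM with LPS. It was at 244, 259 and 217 CPM with CBD+LPS and at 286, 273 and 252 CPM with THC+LPS. The controls overlapped with both the CBD and the THC samples, and the log2 value of THC against Ctrl was 0.41 (interval -0.07 to 0.90). With samples 28 to 39 alone it was 0.60, and miR-30d-3p was then called, the only member called in that comparison (0.923% of all features there). miR-30b-3p was at 110, 72.8 and 83.4 CPM with LPS, at 82.3, 101 and 78.0 CPM with CBD+LPS and at 94.2, 104 and 95.1 CPM with THC+LPS.

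In LPS-treated cells the cannabinoids were compared with LPS alone and with each other. limma called 0 members for CBD+LPS against LPS (0.22% of all features), for THC+LPS against LPS (0.22%) and for CBD+LPS against THC+LPS (0.147%). At an unadjusted p of at most 0.05 there were 1, 0 and 0 members (3.23, 2.35 and 2.64% of all features). edgeR and DESeq2 also called 0 in these 3 comparisons, with 1, 1 and 0 members at that unadjusted p in edgeR and 1, 0 and 0 in DESeq2. Samples did not overlap for 1 member in each comparison (9.32, 7.19 and 6.53% of all features), hairpin mir-30b in the first pair of them and hairpin mir-30a in the last. The log2 values of CBD+LPS against THC+LPS were between -0.13 and 0.01 for the 5p arms, and all 5 intervals stayed within 1.5-fold. For miR-30b-3p the value was -0.17 (interval -0.65 to 0.30) and for miR-30d-3p -0.17 (-0.66 to 0.31). The member below 0.05 was hairpin mir-30b, at 11.8, 13.2 and 7.21 CPM with LPS, at 1.13, 6.64 and 2.40 CPM with CBD+LPS and at 3.55, 2.36 and 5.73 CPM with THC+LPS. It rested on 26 reads over the 3 LPS samples, 8 for CBD+LPS and 9 for THC+LPS. The ratio of CBD+LPS to LPS was 0.31 with an exact 95% interval of 0.121 to 0.705, and that of THC+LPS to LPS was 0.378 (0.156 to 0.832). These intervals cover counting error only. The limma log2 value for CBD+LPS was -1.59 with an adjusted p of 1, and with samples 28 to 39 alone it was -1.09 (unadjusted p = 0.176).

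The effect of LPS pooled over the 3 cannabinoid conditions had 0 members with a limma adjusted p up to 0.1 (1.54% of all features), and 1 at an unadjusted p of at most 0.05 (6.97%). That member was hairpin mir-30d, the most abundant of the hairpins. It was at 177, 159 and 162 CPM in Ctrl, at 126, 143 and 122 CPM with CBD and at 101, 136 and 157 CPM with THC. With LPS it was at 180, 199 and 187 CPM, with CBD+LPS at 127, 162 and 186 CPM and with THC+LPS at 190, 160 and 199 CPM. LPS samples lay above all controls, and the pooled log2 difference was 0.32 ± 0.12 (interval 0.06 to 0.57, unadjusted p = 0.0166, adjusted 0.416). edgeR and DESeq2 likewise reached an unadjusted p of at most 0.05 for this hairpin alone and did not call it. With library size alone the value was 0.18 (unadjusted p = 0.0985). Its mature arms miR-30d-5p and miR-30d-3p had pooled log2 values of 0.02 and -0.04.

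The interaction terms asked whether a cannabinoid acted otherwise with LPS than without it. limma called 0 members and 0% of all features for either cannabinoid. At an unadjusted p of at most 0.05 there was 1 member for CBD (4.77% of all features), miR-30a-5p with -0.44 (interval -0.85 to -0.04, adjusted p = 0.909), and 0 for THC (3.74%). edgeR reached that level for 0 members with either drug, and DESeq2 for miR-30b-3p with CBD. With samples 28 to 39 alone the CBD term was called for miR-30e-5p, at -0.58 with an adjusted p of 0.0537, beside 11.2% of all features in that fit.

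The ratio of the arms from 1 hairpin does not depend on scaling between libraries. The 5p arm exceeded the 3p arm in every sample of every pair. The ratio was 58.9 to 97.0 for miR-30a, 22.02 to 53.1 for miR-30b, 82.6 to 244 for miR-30d and up to 45.4 for miR-30e. For miR-30b it was 34.3 to 39.1 with CBD and 23.5 to 32.01 with THC, which do not overlap, and 22.02 to 27.2 in Ctrl. The miR-30b ratio was also above all controls with LPS (28.5 to 53.1) and with THC+LPS (28.6 to 36.7), and it was 26.96 to 47.4 with CBD+LPS. CBD and THC did not overlap for miR-30a, miR-30e and miR-30d either. No share was computed for arm pairs outside the family, while 20.6% of single features did not overlap between CBD and THC. For miR-30a the ratio was 84.9 to 86.3 with CBD, 61.8 to 69.3 with THC and 58.9 to 82.8 in Ctrl. For miR-30e it was 37.8 to 45.4 with CBD, 25.3 to 36.02 with THC and 26.6 to 40.6 in Ctrl. For miR-30d it was 145 to 244 with CBD and 82.6 to 140 with THC, with Ctrl spanning 116 to 183. miR-30c-5p was 18.8 to 46.3 times the sum of both 3p arms. Here CBD (35.7 to 46.3) and THC (26.05 to 36.1) overlapped. The ratio of the neighbours miR-30d-5p and miR-30b-5p, chosen after the values were seen and so given with no test, was 13.6 to 15.6 in Ctrl and 15.7 to 16.9 with CBD. It was 11 to 12.1 with LPS and 11.6 to 12.5 with THC, while CBD+LPS (13.1 to 15.3) and THC+LPS (12.6 to 16.1) overlapped with Ctrl.

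Several members differed between samples 22 to 27 and samples 28 to 39. With group in the limma fit, 4 of 17 members had an adjusted p up to 0.1, beside 18.1% of all features, a like share. miR-30e-5p averaged 11086 CPM in samples 22 to 27 and 7563 CPM in samples 28 to 39, 1.48-fold higher (log2 0.56 ± 0.07, adjusted p = 2.96e-05), and its lower-numbered sample exceeded the other two in 6 of 6 groups. miR-30b-5p was lower in samples 22 to 27 (2638 against 3469 CPM, log2 -0.39, adjusted p = 0.00391, below both others in 5 of 6 groups). miR-30d-5p was lower as well (38161 against 46027 CPM, log2 -0.28, adjusted p = 0.0249, 5 of 6 groups). miR-30d-3p was higher (327 against 258 CPM, log2 0.33, adjusted p = 0.0341, 5 of 6 groups) and was no longer called without Ctrl sample 22 (0.27) or without LPS sample 23 (0.28).

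Ratios within a sample do not depend on scaling, and the pair below was chosen after these calls were seen, so it is given as a description. miR-30e-5p over miR-30d-5p was 0.242 to 0.333 in samples 22 to 27 (median 0.305). In samples 28 to 39 it was 0.136 to 0.214 (median 0.156). The 5p to 3p ratio of miR-30d was lower in the sample numbered 22 to 27 in 6 of 6 groups (medians 128 and 182). Scaling by library size alone moved the median of all features by 0.16 in this comparison. miR-30d-5p was then at -0.05 and not called, while miR-30a-5p (0.24), miR-30c-5p (0.41), miR-30e-3p (0.47) and hairpin mir-30c-1 (0.47) were called higher. miR-30e-5p (0.79), miR-30d-3p (0.56) and miR-30b-5p (-0.16) were called in the same direction as before. With RLE factors 6 members were called (18.1% of all features) and with the filterByExpr filter 6 (40.2%). The labels give no batch, run or date for these numbers, and their part in the differences between treatments was not tested beyond the fits with samples 28 to 39 alone and with terms for the sets of numbers.

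**Figure D5:**
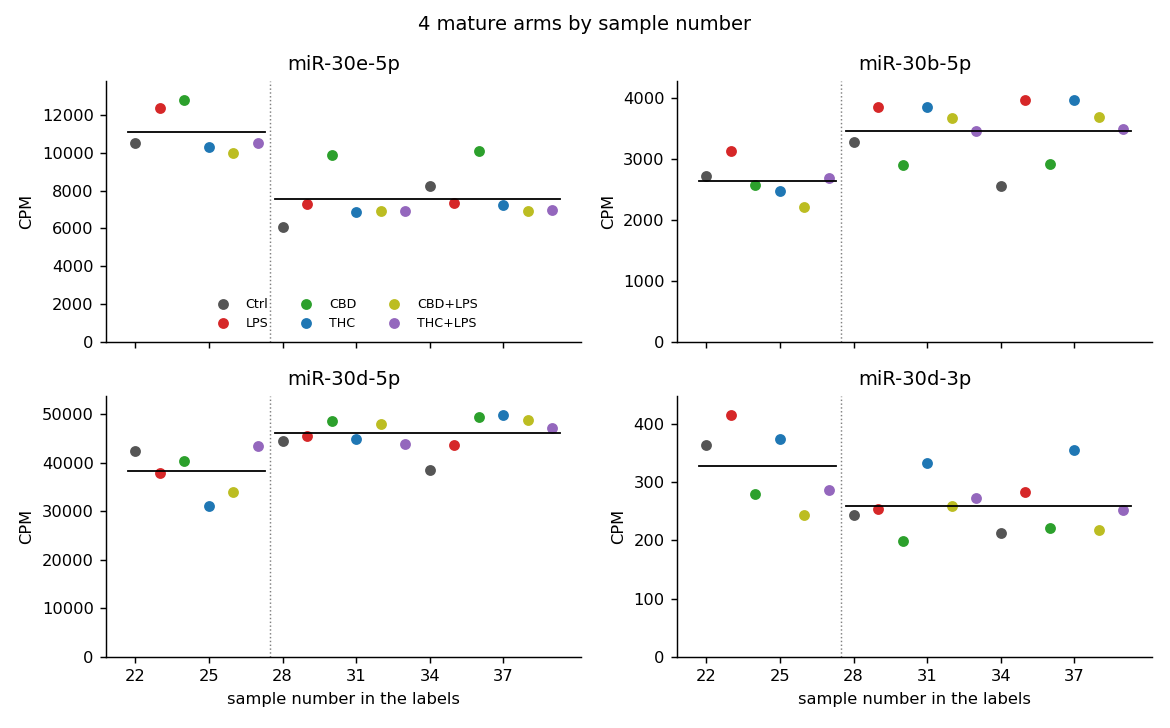
CPM (linear axis from 0) of miR-30e-5p, miR-30b-5p, miR-30d-5p and miR-30d-3p against the sample number in the labels, coloured by group, with black lines at the means of samples 22 to 27 and of samples 28 to 39 and a dotted line between them. miR-30e-5p and miR-30d-3p are higher on the left (11086 and 327 CPM) and miR-30b-5p and miR-30d-5p lower (2638 and 38161 CPM).

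The remaining hairpins were low. mir-30c-1 averaged 42.2 CPM and mir-30c-2 42.8 CPM, while mir-30a (4 to 17 reads per library), mir-30b (1 to 10) and mir-30e (2 to 11) were near the floor of 3 reads. Differences in these 3 hairpins were not detectable at this depth unless several-fold. Relatives outside the naming rule were lower still. mir-30f, whose gene lies on the strand opposite Mir30e, had 94 reads over all samples, its mature miR-30f 33, mir-384 13, miR-384-3p 2 and miR-384-5p 0.

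The mature features whose levels followed the summed 5p arms most closely were miR-106b-5p (Pearson r = 0.81), let-7d-3p (0.79), miR-378a-3p (0.79), miR-182-5p (0.79) and miR-200b-3p (0.77). They were taken from 177 mature features of at least 100 CPM on average, over the 18 samples on the log2 scale. The points share libraries and their scaling, and r is given as a description.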

How the data were processed

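Small RNA libraries of 18 BV-2 samples (TruSeq Small RNA kit, a single pool, Illumina HiSeq) were aligned by the authors to mouse miRBase with BWA, with at most 10 mappings per read, and counted per known miRNA. The miRBase version of the alignment is not given in the sources used here. The values the authors deposited are CPM scaled by edgeR's TMM factor, without a filter. Where a sample's values sum to more than plain CPM can, the unit was recorded as a signal, since the deposited signal is the same CPM divided by a factor below 1. Dividing by the smallest value above 0 gave whole reads back (100% of values within 0.01 of a whole number). Replicates differed by more than sampling noise in all 18 pairs (chi-square over degrees of freedom 3.04 to 98.6), so all were counted. Groups came from the labels.

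log2(CPM + 1) of the 1363 features with at least 10 reads (642 hairpins, 721 mature) was fitted with limma 3.58.1 (mean-variance trend, R 4.3.3) over 6 groups, and with additive LPS and cannabinoid terms for the pooled LPS effect. Fold changes are on this scale, which understates those of low features. The criterion of p of at most 0.005 with 1.5-fold for 2 groups is the study's, taken as unadjusted. The study applied it to miRNAs already differing across treatments at an FDR of 0.1, and here it was applied to all tested features. Other tests used a Benjamini-Hochberg adjusted p of at most 0.1 over all features. Tests were 2-sided. In simulated data of 1310 features for LPS against Ctrl, 100% of features of at least 50 CPM changed 4-fold were called, and with no change simulated for CBD against Ctrl 0.382% were. The simulated samples had a single fixed spread beyond counting error and no difference by sample number. These values therefore do not measure the power for smaller changes or for features under 50 CPM.

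Alternatives were pseudocounts of 0.5 and 2, library size or RLE factors, at least 1 read or filterByExpr, hairpins and mature features apart, edgeR 4.0.16 and DESeq2 1.42.0 on recovered reads, samples 28 to 39, covariates for samples 22 to 27 or for library composition (mir-6236, mir-6240 and mir-6243), an adjusted p for 2 groups, and each sample left out. The comparison by sample number with its alternatives, and a covariate for the sets 22 to 27, 28 to 33 and 34 to 39, were chosen after seeing the data. The members, marker lists and tests were chosen with earlier results of these data known. Named features were all members, same-seed or same-name relatives (reads only), miR-155-5p, and the 5 features most correlated with the summed 5p arms. miR-103-3p, often used as a reference, averaged 6395 CPM, and miR-191-5p 65030 CPM. Python 3.11.15 with matplotlib 3.10.9 drew the figures.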

Additional observations from a re-analysis of the deposited data

How the results depend on the processing

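The count of 0 members called held in each of the 13 treatment comparisons under pseudocounts of 0.5 and 2, a minimum of 1 read, hairpins and mature features tested apart, edgeR's quasi-likelihood test, the composition covariate and the adjusted p for 2 groups. For CBD against THC, 1 member (miR-30b-3p) was called with library size alone, RLE factors, filterByExpr (23 of 645 features, fewer tested) and DESeq2, 2 (with miR-30d-3p) with samples 28 to 39 alone, a covariate for samples 22 to 27 or one for the sets 22 to 27, 28 to 33 and 34 to 39, and 0 to 1 with a sample left out, 1 without LPS sample 23 or without THC sample 25. DESeq2 called 1 member, miR-30b-3p, in the test over the groups and for CBD against Ctrl. Samples 28 to 39 alone called 5 members in the F test (miR-30a-5p, miR-30b-3p, miR-30b-5p, miR-30d-3p and miR-30e-5p, beside 21.1% of 1192 features), 1 for THC against Ctrl and 1 for the CBD interaction. These calls rest on 2 samples per group, and the cause was not tested. For samples 22 to 27 against 28 to 39, library size alone called 7 members in place of 4 (20.5% of all features), RLE factors 6 (18.1%) and filterByExpr 6 (40.2% of 645 features). Leaving out a sample gave 3 to 5 members, and miR-30d-5p moved from -0.28 to -0.05 under library size alone. Without TMM the summed 5p arms were 82002 CPM in Ctrl, 76246 with LPS and 77069 with THC+LPS, which puts LPS below Ctrl, and with RLE factors 77735 with LPS, each off by more than the SD of its group. No pairing was taken from the labels, in which the groups share no replicate number. The covariate for the sets of 6 numbers, chosen after seeing the data, is a grouping by number and not a pairing that the labels give, and it changed the calls for CBD against THC alone. With 3 samples per group, differences of 1.5-fold lay within the interval for most 3p arms and hairpins.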
